A study of Mus musculus with 3 samples.

Results

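Capillary endothelial cells of the mouse lacrimal gland (LG), the gland that secretes the watery part of tears, were selected in the single-cell RNA-seq libraries on the transcripts that each cell held, and were therefore chosen by measured values of the genes named here. A cell was counted as capillary when it held at least 3 unique molecular identifiers (UMIs) of the endothelial genes *Pecam1*, *Cdh5*, *Kdr*, *Flt1*, *Egfl7* and *Emcn* and at least 2 UMIs of *Plvap*, *Rgcc*, *Cxcl12* and *Rbp7*. It also had to hold 0 UMIs of the venular genes *Selp*, *Ackr1* and *Vcam1*, at most 1 UMI of the arteriolar genes *Cldn5* and *Stmn2*, and 0 UMIs of *Ptprc*, *Epcam*, *Col1a1* and *Col3a1*. With this rule, 913 of 19592 cells (4.66%) were capillary, which was 65.9% of the 1386 cells that met the endothelial condition and held none of the last 4 genes.

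Capillaries are the vessels across which blood and tissue exchange water, hormones and nutrients, and they lie between the arterioles that feed a gland and the venules that drain it. In many secretory glands the capillary wall is fenestrated, and PLVAP forms the diaphragms that span these pores. Leukocytes leave the blood mostly in the venules, where selectins and adhesion molecules hold them, rather than in the capillary bed.

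The study profiled dissociated LGs of C57BL/6J mice at 2 months of age, with 3 animals (6 glands) pooled in each library. There was 1 female library and there were 2 male libraries, of mice for which the labels name no treatment or transgene, made with the 10x Genomics 3′ chemistry, which reads the end of each transcript. The female glands were processed at another core facility and on another day than the male glands, so that sex, facility and day cannot be told apart. With 1 female library no test of sex was possible. Adjusted p-values reflect how differences between endothelial classes varied over the 3 libraries only, with the estimate of spread shared across genes. Values given in threes follow the order female library, male library 1, male library 2.

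The libraries differed in depth and in free RNA. The cells kept (more than 500 UMIs, more than 200 genes and under 15% mitochondrial UMIs) numbered 8298, 5582 and 5712, and the capillary cells held a median of 2569, 1409 and 1241 UMIs. Transcripts of 145 tear-product genes, which acinar cells make, were 86.2%, 91.7% and 91.4% of the UMIs in droplets that held more than 500 UMIs but were not called as cells. Among capillary cells these genes made up 38.3%, 53.2% and 62.1% of the UMIs. Levels are therefore given as CPM, the UMIs of a gene per 1000000 UMIs outside the tear-product genes. The libraries shared 11 to 17 barcodes among kept cells and 0 among capillary cells.

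The capillary cells numbered 583, 211 and 119. Their share of kept cells was 7.03% in the female library (95% exact binomial interval 6.49 to 7.60%), 3.78% in male library 1 (3.30 to 4.31%) and 2.08% in male library 2 (1.73 to 2.49%). These intervals, which cover counting error only, did not overlap between the libraries. Within the endothelium the share was 67.2%, 66.4% and 59.5%, a mean of 64.3 ± 4.21% (SD, n = 3 libraries), and there the intervals overlapped. When the female UMIs were thinned at random to 0.399 of their number, a depth like that of the male libraries, 506 of the female cells already kept met the rule. Of these, 438 were among the 583. A lower share of capillary cells and less endothelial RNA per cell cannot be told apart in these counts.

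**Figure D1:**
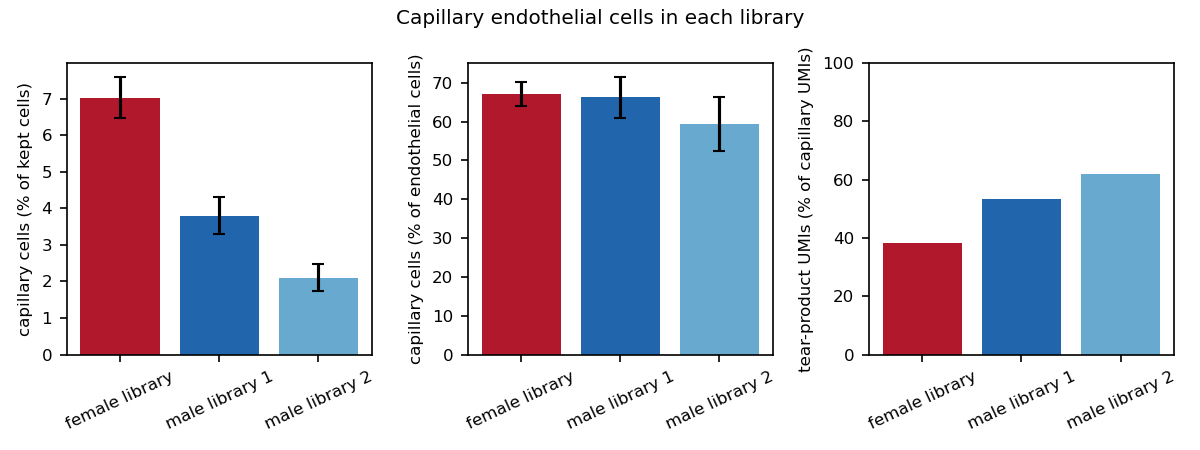
Bars show, for each library, capillary endothelial cells as a percent of kept cells (left) and of endothelial cells (middle), with 95% exact binomial intervals, and the percent of their UMIs that came from tear-product genes (right). The share of kept cells was highest in the female library (7.03%) and the share within the endothelium lay between 59.5% and 67.2%.

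The thresholds of the rule had cells on both sides. A sum of 3 endothelial UMIs, the lowest allowed, was found in 79 capillary cells, and 80 cells missed the rule by 1 endothelial UMI alone. For the capillary genes, 77 members held the lowest sum of 2 UMIs, while 51 cells with a sum of 1 UMI were left out. A single UMI of a venular gene kept out 45 cells, a second UMI of *Cldn5* or *Stmn2* kept out 12, and a UMI of *Ptprc*, *Epcam*, *Col1a1* or *Col3a1* kept out 142. The median member held 11 endothelial UMIs and 9 capillary UMIs, in a total of 2038 UMIs and 774 genes.

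The genes that chose the cells are described first, without a test. *Cxcl12*, a chemokine that retains CXCR4-bearing leukocytes, had 3992, 4805 and 4349.5 CPM in capillary cells, and *Plvap* had 2194, 3190.1 and 3123 CPM. *Kdr*, which encodes the main signalling receptor for VEGF, had 1907, 1473 and 1307 CPM. *Rgcc*, a regulator of the cell cycle, had 1069, 1203 and 1041 CPM and varied least, with 1104 ± 86.4 CPM (mean ± SD, n = 3 libraries). *Rbp7*, a cytosolic retinol-binding protein, varied most, at 614, 1402 and 798 CPM. *Cxcl12* was also high in fibroblast-like cells (1531 ± 500.1 CPM) and *Rgcc* was present in epithelial-like cells (276 ± 160.2 CPM), so neither gene marked capillary cells alone.

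To compare shares of cells with a UMI across libraries, each cell was thinned to 1000 UMIs. *Plvap* was then detected in 68.1, 69.8 and 85.3% of capillary cells and in 3.02, 1.97 and 1.35% of fibroblast-like cells, which should lack it. In venous cells, which are described below, *Plvap* was detected in 55.8, 65.4 and 56.5%, so it did not mark capillary cells alone. *Cxcl12* was detected in 71.8, 69.8 and 65.3% of capillary cells and *Rbp7* in 27.6, 37.7 and 29.5%. Without thinning the shares were 84.9, 83.9 and 89.9% for *Plvap*, 89.4, 78.7 and 77.3% for *Cxcl12* and 51.1, 46.0 and 36.1% for *Rbp7*. Thinning left out 22, 12 and 24 capillary cells that held under 1000 UMIs.

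Genes that the rule did not use also set these cells apart from the kept cells outside the endothelial classes. The 10 genes with the highest ratio of CPM were *Btnl9*, *Gpihbp1*, *Clic5*, *Cyyr1*, *Podxl*, *Col13a1*, *Cd300lg*, *Adgrl4*, *Esm1* and *Sox18*. *Gpihbp1*, the protein that carries lipoprotein lipase to the capillary lumen, had 418, 463 and 254 CPM against 3.73 ± 1.79 CPM outside the endothelium. *Col13a1*, a collagen with a transmembrane domain, had 398, 405 and 370.2 CPM against 4.14 ± 1.43 CPM, and *Podxl*, a sialomucin of the luminal surface, had 887, 527 and 578 CPM against 7.62 ± 3.19 CPM. These cells were picked as endothelial, so the ratios describe them and were not tested. *Gpihbp1*, *Btnl9*, *Cd300lg* and *Esm1* are established markers of capillaries or of the endothelium. The capillary markers *Fabp4* and *Aqp1*, also outside the rule, went the other way when set beside venous cells, which are described below. *Fabp4* was detected in 3.6, 9.0 and 3.2% of thinned capillary cells and in 68.7, 57.7 and 63.0% of thinned venous cells. For *Aqp1* the shares were 26.4, 24.1 and 30.5% against 66.7, 51.9 and 67.4%.

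**Figure D2:**
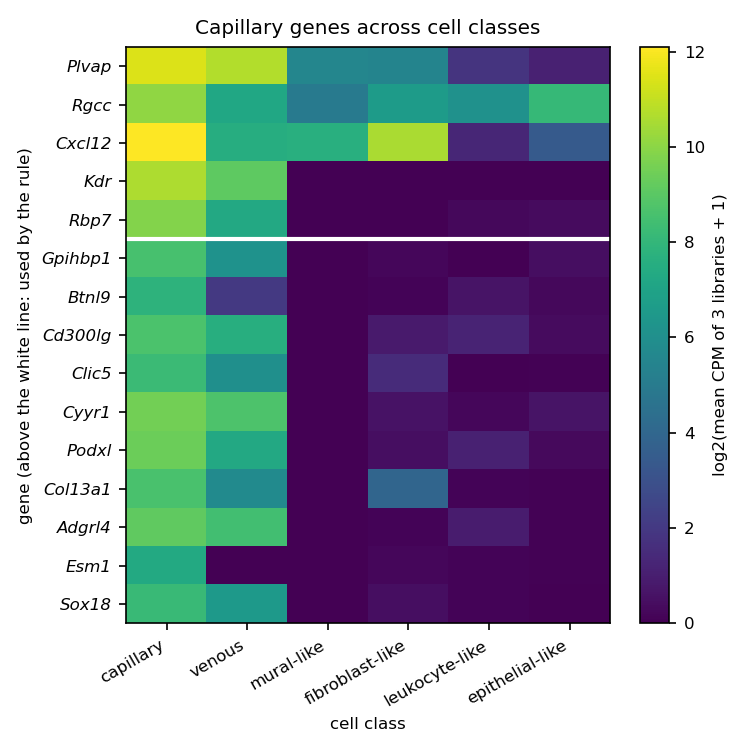
Colour shows log2(mean CPM of the 3 libraries + 1) of 15 genes (rows) in capillary cells, venous cells and 4 other classes (columns). The 5 genes above the white line were used by the rule, and the 10 below it, such as *Btnl9* at 225 ± 96.8 CPM in capillary cells, were not.

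Markers of other cells were low but present. The summed CPM of 10 epithelial markers was 507, 1222 and 1816 in capillary cells and 441, 1071 and 1671 in fibroblast-like cells, and *Epcam* was at 0 by the rule. The sum of 9 mural markers was 31.2, 135 and 185 CPM, against 18478, 15396 and 13036 CPM in mural-like cells, and *Notch3* was at 0. The sum of 8 leukocyte markers was 54.4, 122 and 266 CPM, with *Ptprc* and *Cd3e* at 0. Of 7 lymphatic markers, *Prox1*, *Lyve1*, *Ccl21a* and *Mmrn1* were at 0 in all 913 cells, and the sum was 76.7, 64.3 and 46.3 CPM. Of 7 fibroblast markers, 2 were at 0 by the rule and the sum was 13.4, 70.7 and 11.6 CPM. Hemoglobin and platelet genes summed to 318, 6 and 0 UMIs, of which 1 female cell held 316 hemoglobin UMIs. The 2 Schwann cell markers had 2, 0 and 0 UMIs.

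The first comparison asked how capillary cells differed from venous cells of the same libraries, which held at least 2 UMIs of *Selp*, *Ackr1* and *Vcam1* (151, 52 and 47 cells). Capillary cells had higher levels of *Btnl9*, of the BMP targets *Id1*, *Id2* and *Id3* and of thrombomodulin (*Thbd*). They had lower levels of *Sele*, of the chemokines *Cxcl1* and *Cxcl10*, of *Icam1* and of *Fabp4*. The collagen IV genes were higher as well, but passed under fewer of the alternative fits described at the end. UMIs were summed over the cells of each class and library and tested with edgeR's quasi-likelihood method, in a model that also held a term for each library. A gene was called at an adjusted p (Benjamini-Hochberg, over all genes tested) under 0.05, and a value in parentheses after a gene is its log2 fold change in capillary over the other cells. Of 1630 genes tested outside the rule, 297 (18.2%) were called, 153 (9.39%) higher and 144 (8.83%) lower in capillary cells, and the median log2 fold change over all genes was 0.08. Counts within the gene lists below are to be read beside these shares. When the sums were scaled by total UMIs instead of TMM, 156 were higher and 246 lower. The classes were separated by other genes measured in the same cells, and genes that go along with those could differ for that reason alone.

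The gene that rose most in capillary cells was *Btnl9*, a butyrophilin-like membrane protein. It had 335, 154 and 185 CPM in capillary cells and 8.95, 0 and 0 CPM in venous cells, where it rested on 3, 0 and 0 UMIs. Every capillary value lay above every venous value, with a log2 fold change of 5.18 ± 0.55 (SE) and an adjusted p of 6.05e-19 (edgeR). *Sema7a*, a membrane-anchored semaphorin, had 292, 219 and 139 CPM against 11.9, 20.3 and 0 CPM, a log2 fold change of 4.35 ± 0.50 (SE). *Prom1*, a glycoprotein of membrane protrusions, had 327, 154 and 162 CPM against 17.9, 0 and 0 CPM (log2 fold change 4.26 ± 0.47 (SE)). The groups did not overlap for either gene. These genes were named for large changes of the same direction in 3 of 3 libraries, so the lack of overlap is no further support. Here and below it only describes the values, and its share over all genes was not counted.

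Of the other genes with the largest increases, *Srarp* (3.37 on the log2 scale), *Slc39a10*, a zinc importer (2.97), *Col13a1* (2.76), *Thrsp*, a regulator of lipid synthesis (2.76), and *Igfbp3*, which binds insulin-like growth factors (2.67), were each higher in 3 of 3 libraries. *Rsad2*, which encodes the antiviral enzyme viperin, had 780.2, 624 and 544 CPM in capillary cells and 53.7, 101 and 127 CPM in venous cells, a log2 fold change of 3.20 ± 0.36 (SE) (adjusted p = 7.4e-17, edgeR).

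**Figure D3:**
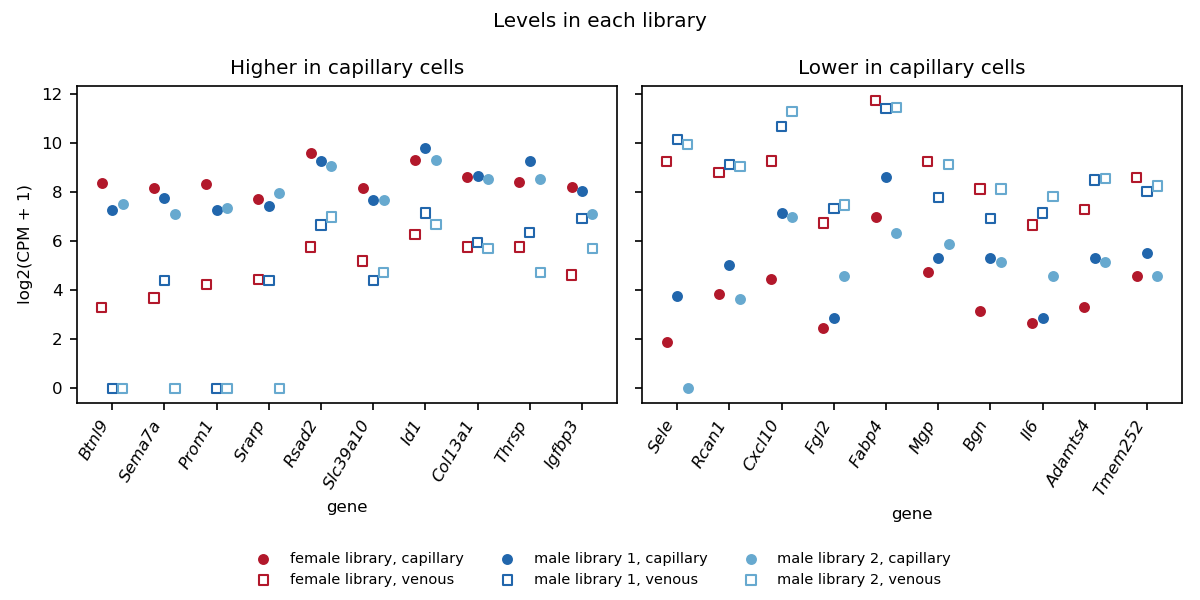
Points show log2(CPM + 1) in each library for the 10 genes with the largest increase (left) and the largest decrease (right) in capillary cells (filled circles) against venous cells (open squares). Circles lay above squares within each library for *Btnl9* to *Igfbp3* and under them for *Sele* to *Tmem252*.

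Genes of the capillary bed, a list of 15 of which 12 could be tested, were mostly higher. In this list 8 genes rose, 1 fell and 3 did not pass, with a median log2 fold change of 0.95. *Ly6c1*, a membrane-anchored Ly6 protein, had 1929, 3016 and 2510.2 CPM against 599.5, 972 and 663 CPM (log2 fold change 1.67 ± 0.30 (SE), adjusted p = 6.4e-07, edgeR). *Cd300lg*, a receptor on capillary endothelium, had 451, 437 and 324 CPM against 41.8, 324 and 204 CPM (log2 fold change 1.82 ± 0.32 (SE)), so that it differed less in the male libraries. *Sparcl1* (1.14), *Rasgrp3* (1.29), *Kitl* (1.00), *Tspan13* (0.89) and *Sgk1* (0.85) also rose. *Aqp1*, the water channel, fell instead, with 535, 688 and 636 CPM in capillary cells and 1816, 1641 and 1759 CPM in venous cells (log2 fold change -1.60 ± 0.27 (SE)). *Ly6c1* shares sequence with other Ly6 genes, so reads may have been split between them.

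Handling of lipids differed by gene. Of 15 genes 4 could be tested, and 2 rose while 2 fell. *Gpihbp1* was higher in capillary cells, at 418, 463 and 254 CPM against 86.5, 101 and 25.5 CPM (log2 fold change 2.24 ± 0.32 (SE), adjusted p = 1.37e-10, edgeR). *Scarb1*, the receptor for high-density lipoprotein, had 771, 888 and 729 CPM against 292, 385 and 433 CPM (log2 fold change 1.12 ± 0.28 (SE)). The fatty-acid-binding proteins went the other way. *Fabp4* had 127, 392 and 81.0 CPM in capillary cells and 3463, 2755 and 2829 CPM in venous cells, with no overlap (log2 fold change -4.20 ± 0.33 (SE), adjusted p = 1.71e-33, edgeR). *Fabp5* had 19.6, 116 and 139 CPM against 173, 182 and 204 CPM (log2 fold change -1.97 ± 0.34 (SE)). *Cd36*, the fatty acid translocase, did not pass the count filter at 74.0, 122 and 46.3 CPM in capillary cells, and *Lpl* itself had 1, 1 and 0 UMIs.

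BMP and TGF-beta signalling works through ligands, paired receptors and SMAD proteins, and the *Id* genes are its best known immediate targets in endothelium. Of 16 genes in this list 10 could be tested, of which 5 rose and 5 did not pass (median 0.78). The targets moved most. *Id1* had 646, 894 and 648 CPM against 77.5, 142 and 102 CPM in venous cells, a log2 fold change of 2.87 ± 0.35 (SE) (adjusted p = 1.02e-14, edgeR). *Id3* had 1407, 1666 and 1515 CPM against 424, 203 and 280.4 CPM (2.13 ± 0.31 (SE)), and *Id2* had 173, 161 and 116 CPM against 62.6, 20.3 and 51.0 CPM (1.52 ± 0.40 (SE)). For each of these targets the lowest capillary value lay above the highest venous value.

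Receptors of the pathway moved less. *Acvrl1*, the endothelial type I receptor ALK1, had 299, 315 and 370.2 CPM against 176, 182 and 127 CPM (log2 fold change 0.80 ± 0.28 (SE)), and *Tgfbr2* had 254, 251 and 254 CPM against 143, 81.0 and 25.5 CPM (1.06 ± 0.30 (SE)). The co-receptor *Eng* (0.04) and the type II receptor *Bmpr2* (0.06) did not pass, nor did the inhibitor *Smad7* (0.75, adjusted p = 0.0547, edgeR). Of the ligands, *Bmp4* had 4, 3 and 0 UMIs and *Bmp6* had 10, 2 and 0 UMIs in capillary cells. *Tgfb2* had 242, 12 and 8 UMIs in capillary cells and 9, 0 and 0 UMIs in venous cells and did not pass the count filter. The hexamer GGCGCC, part of BMP-responsive elements, was searched on both strands in the 250 bases before the start site of *Id2* and *Id3*. It was found in *Id2* and not in *Id3*, and 9.59% of 32851 mouse promoter windows of that length held it. *Id1* was not searched, since no promoter was matched to its symbol.

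Genes of the basement membrane, the sheet of collagen IV, laminin and perlecan on which endothelium rests, rose in 6 of 11 tested cases and the other 5 did not pass (median 0.76). *Col4a2* had 777, 669 and 578 CPM against 167, 567 and 255 CPM (log2 fold change 1.29 ± 0.30 (SE)), and *Col4a1* had 1145, 888 and 555 CPM against 388, 709 and 459 CPM (0.80 ± 0.29 (SE)). Neither collagen gene kept its call with DESeq2 or without the female library. *Hspg2*, which encodes perlecan, had 426, 289 and 231 CPM against 113, 142 and 178 CPM (1.41 ± 0.31 (SE)). *Lama4* (1.43), *Sparc* (0.76) and the collagen receptor subunit *Itga1* (1.45) rose as well, while *Itgb1* (-0.16) and *Nid1* (-0.13) did not pass. *Col15a1*, a collagen of capillary basement membranes, had 172, 360.2 and 382 CPM against 89.5, 304 and 484 CPM and did not pass.

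Genes that respond to blood flow and limit clotting were higher in 3 of 5 tested cases. *Thbd*, which encodes thrombomodulin, had 811, 617 and 590.0 CPM against 280.4, 324 and 204 CPM (log2 fold change 1.28 ± 0.29 (SE), adjusted p = 0.000162, edgeR). *Klf2*, the transcription factor best known for its response to shear, had 1061, 823 and 902 CPM against 561, 547 and 382 CPM (0.82 ± 0.29 (SE)), and *Klf4* had 839, 527 and 544 CPM against 519, 182 and 229 CPM (0.88 ± 0.30 (SE)). *Vwf*, the platelet tether stored in Weibel-Palade bodies, fell, at 67.8, 70.7 and 92.5 CPM in capillary cells and 1029, 344 and 433 CPM in venous cells (log2 fold change -3.44 ± 0.32 (SE), adjusted p = 8.18e-25, edgeR).

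Among growth factors made by endothelium, 5 of 9 tested genes rose, 1 fell and 3 did not pass (median 0.90). *Pdgfb*, the signal that recruits pericytes, had 437, 302 and 254 CPM against 80.5, 101 and 0 CPM (log2 fold change 2.33 ± 0.34 (SE)). *Kitl*, the ligand of the KIT receptor, had 730.3, 444 and 231 CPM against 307, 284 and 102 CPM (1.00 ± 0.31 (SE)). *Igfbp7*, a secreted protein of the vessel wall, was the most abundant of these at 5032, 7480.1 and 6212 CPM against 2431, 4011 and 3160.4 CPM (0.90 ± 0.33 (SE)). Of the IGF-binding proteins, *Igfbp3* rose (2.67 ± 0.38 (SE)) and *Igfbp4* fell (-2.60 ± 0.34 (SE)). *Ccn1*, a matricellular protein, rose (0.93).

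For VEGF and angiopoietin signalling, 2 of 6 tested genes rose, 1 fell and 3 did not pass. *Nrp1*, the neuropilin that assists KDR, had 1187, 945 and 844 CPM against 352, 203 and 382 CPM (log2 fold change 1.65 ± 0.30 (SE)). *Nrp2*, which is known from veins and lymphatics, had 155, 161 and 127 CPM against 465, 284 and 178 CPM and fell (-1.39 ± 0.26 (SE)). *Robo4*, a guidance receptor of endothelium, rose (0.82), while *Tek* (0.03), *Tie1* (0.53) and *Ptprb* (-0.27) did not pass. The ligand *Vegfa* had 9, 4 and 4 UMIs in capillary cells.

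Genes of tip cells and of Notch signalling were mostly too low to test. *Esm1*, a secreted proteoglycan known from tip cells, had 104, 193 and 197 CPM in capillary cells and 0 UMIs in venous cells. Over the pooled libraries a count of 0 allows up to 3 UMIs, or 7.08 CPM, so that *Esm1* was at least 17-fold higher in capillary cells (120.3 CPM pooled). *Dll4*, the arterial and tip-cell Notch ligand, had 89, 14 and 4 UMIs in capillary cells against 1, 0 and 1 in venous cells. Of the 3 Notch genes tested, *Jag2* (2.00 ± 0.48 (SE)) and *Hes1* (0.92 ± 0.30 (SE)) rose and *Notch1* (0.69) did not pass. Of the cell cycle genes *Mki67*, a marker of dividing cells, had 13, 4 and 8 UMIs in capillary cells, and *Stmn1*, a regulator of microtubules, was the one tested and rose (1.71 ± 0.48 (SE)).

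Of 13 transcription factors tested, 6 rose, 2 fell and 5 did not pass (median 0.45). *Sox18* had 459, 257 and 174 CPM against 152, 40.5 and 76.5 CPM (log2 fold change 1.58 ± 0.32 (SE)), *Mef2c* had 1014, 733 and 1122 CPM against 412, 405 and 204 CPM (1.35 ± 0.29 (SE)), and *Sox17* (0.88), *Lmo2* (0.92), *Gata2* (1.26) and *Epas1* (0.77) rose. *Nr2f2*, the factor that sets venous fate, had 67.8, 64.3 and 57.8 CPM in capillary cells and 280.4, 122 and 204 CPM in venous cells, and fell (-1.91 ± 0.34 (SE)). *Sox7* also fell (-1.59). Of 8 transporters tested, the efflux pump *Abcb1a* (1.32), the taurine transporter *Slc6a6* (1.16) and the scaffold *Slc9a3r2* (2.15) rose. *Aqp1* and the prostaglandin transporter *Slco2a1* (-0.99) fell, and 3 did not pass.

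For caveolae and fenestrae, apart from *Plvap*, 2 of 8 tested genes rose and 6 did not pass, beside 18.2% called among all genes. *Cav2* had 389.7, 161 and 197 CPM against 212, 60.8 and 51.0 CPM (log2 fold change 0.93 ± 0.30 (SE)). *Cav1*, the main coat protein of caveolae, was higher in each library, at 1403, 926 and 763 CPM against 692, 810.4 and 433 CPM, and did not pass (0.64 ± 0.29 (SE), adjusted p = 0.121, edgeR). Of 9 junction genes *Jam3* (1.83 ± 0.32 (SE)) and *Robo4* rose and 7 did not pass, such as *Esam* (0.13) and *Tjp1* (-0.24). With so few genes, neither list can be set apart from the share over all genes.

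Among the gene lists, the lowest median log2 fold change was that of genes that recruit leukocytes. Of 22 genes in this list 12 could be tested, of which 9 fell and the other 3 did not pass, with a median of -2.43 against 0.08 over all genes. Of these, *Cxcl10* and *Vwf* were used by the study to describe venous cells of these samples and are no independent evidence. The classes were also separated by *Selp*, *Ackr1* and *Vcam1*, which the study ties to leukocyte adhesion and recruitment. A fall of the other genes in this list could follow from that rule and is no independent evidence either. *Sele*, which encodes E-selectin, had 3, 2 and 0 UMIs in capillary cells and 204, 57 and 39 UMIs in venous cells. That corresponded to 2.68, 12.9 and 0 CPM against 608, 1155 and 994 CPM, with no overlap (log2 fold change -7.43 ± 0.41 (SE), adjusted p = 1.84e-67, edgeR).

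*Cxcl10*, a chemokine for CXCR3-bearing T cells, had 21.4, 141 and 127 CPM against 620.4, 1661 and 2523 CPM (log2 fold change -4.34 ± 0.30 (SE)). *Cxcl1*, a neutrophil chemokine, had 34.8, 116 and 81.0 CPM against 239, 567 and 663 CPM (-2.75 ± 0.28 (SE)). *Il6* had 6, 1 and 2 UMIs in capillary cells and 34, 7 and 9 UMIs in venous cells (-4.06 ± 0.47 (SE)). None of these overlapped between the classes. *Icam1*, the integrin ligand for firm adhesion, had 104, 212 and 197 CPM against 886, 871 and 892 CPM (-2.66 ± 0.28 (SE)), and *Nfkbia*, the feedback inhibitor of NF-kB, had 643, 894 and 902 CPM against 3221, 3363 and 3313 CPM (-2.14 ± 0.29 (SE)). *Lrg1* (-2.20 ± 0.27 (SE)) and the receptor subunit *Il6st* (-1.56 ± 0.27 (SE)) fell, while *Lifr* (0.23), *Tnfrsf1a* (-0.45) and *Cd47* (0.41) did not pass.

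Because several of these genes are known targets of NF-kB, their promoters were searched on both strands for an NF-kB motif, the letters GGGA and TTCC with any 2 bases between them, in the 250 bases before the start site. Promoters of 8 of the 9 genes were matched by symbol in the RefSeq table (build GRCm38.p6). The motif was present in *Cxcl1*, *Cxcl10*, *Il6* and *Nfkbia*, and it was not found in the windows of *Icam1*, *Il6st*, *Lrg1* and *Sele*. Of 32851 promoter windows 1.21% held it. The 4 promoters that held it are shown 5′ to 3′ on the strand of the gene, with the matched bases in capitals. In *Cxcl1* 2 matches on opposite strands overlap.
Cxcl1 (chr5:90890995-90891244, plus strand): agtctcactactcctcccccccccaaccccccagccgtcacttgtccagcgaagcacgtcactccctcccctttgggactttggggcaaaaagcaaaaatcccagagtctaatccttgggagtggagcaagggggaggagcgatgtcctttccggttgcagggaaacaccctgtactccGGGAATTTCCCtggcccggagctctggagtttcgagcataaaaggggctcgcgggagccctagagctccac
Cxcl10 (chr5:92348890-92349139, minus strand): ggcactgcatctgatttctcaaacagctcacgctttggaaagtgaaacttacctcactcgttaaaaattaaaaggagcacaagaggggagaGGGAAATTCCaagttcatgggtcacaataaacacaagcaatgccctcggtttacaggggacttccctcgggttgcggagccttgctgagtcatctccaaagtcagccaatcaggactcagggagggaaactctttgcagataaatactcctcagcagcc
Il6 (chr5:30012864-30013113, plus strand): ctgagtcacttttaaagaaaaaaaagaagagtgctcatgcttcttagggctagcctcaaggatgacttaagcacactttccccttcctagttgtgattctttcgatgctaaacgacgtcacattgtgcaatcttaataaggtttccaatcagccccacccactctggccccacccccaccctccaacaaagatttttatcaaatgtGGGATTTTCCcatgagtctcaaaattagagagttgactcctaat
Nfkbia (chr12:55492648-55492897, minus strand): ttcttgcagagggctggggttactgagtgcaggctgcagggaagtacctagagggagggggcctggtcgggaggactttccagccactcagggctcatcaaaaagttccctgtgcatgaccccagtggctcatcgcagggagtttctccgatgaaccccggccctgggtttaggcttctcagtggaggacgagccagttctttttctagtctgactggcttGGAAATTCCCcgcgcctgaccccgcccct
The matches describe letters in these windows and were not tested as binding sites.

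Of the 9 tested genes of venous identity, 6 fell in capillary cells and 3 did not pass (median -1.39). Besides *Vwf*, *Nr2f2*, *Lrg1* and *Nrp2*, these were *Bgn*, the proteoglycan biglycan (8.03, 38.6 and 34.7 CPM against 280.4, 122 and 280.4 CPM, log2 fold change -4.08 ± 0.40 (SE)), and *Ptgs1*, cyclooxygenase 1 (-1.02). Of the 8 arterial genes tested, *Efnb2* (1.45 ± 0.42 (SE)), *Jag2* and *Sox17* rose and *Mgp* and *Fbln2* (-2.58) fell. *Mgp*, an inhibitor of calcification, had 25.9, 38.6 and 57.8 CPM against 617, 223 and 561 CPM (-4.16 ± 0.35 (SE)). Other large decreases were those of *Rcan1*, an inhibitor of calcineurin (-4.94), *Fgl2* (-4.24), *Adamts4*, a protease of proteoglycans (-3.79), and *Tmem252* (-3.78), each lower in 3 of 3 libraries.

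**Figure D4:**
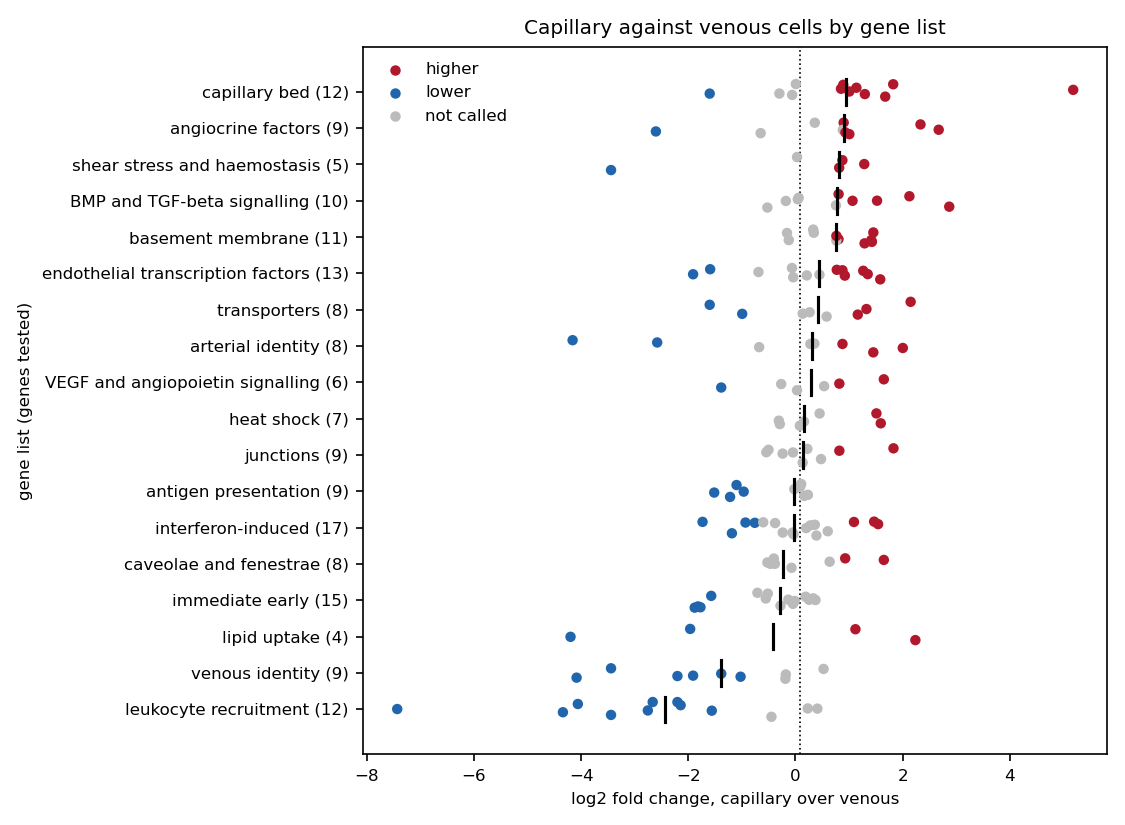
Each point is a tested gene, placed by its log2 fold change in capillary over venous cells and coloured by its call, within 18 gene lists (vertical axis, number tested in parentheses). Black bars mark list medians, from -2.43 for leukocyte recruitment to 0.95 for the capillary bed, and the dotted line is the median over all genes (0.08).

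Stress and interferon genes went both ways. Of 17 interferon-induced genes 3 rose (such as *Irf7*, 1.47, and *Ly6a*, 1.54), 4 fell (*Irf1* -1.73, *Iigp1* -1.19, *Gbp4* -0.93, *Ifit1* -0.76) and 10 did not pass. The Ly6, Gbp and H2 families hold close copies, so values of their members are uncertain. Of 15 immediate early genes, which respond within minutes to stimuli including tissue dissociation, 4 fell and 11 did not pass. *Zfp36*, which destabilizes inflammatory mRNAs, had 972, 637 and 659 CPM against 4733, 1499 and 2039 CPM (log2 fold change -1.88 ± 0.30 (SE)). *Atf3* (-1.82), *Socs3* (-1.77) and *Ier3* (-1.57) fell too, whereas *Fos* (0.19) and *Egr1* (0.37) did not pass. Of 7 heat shock genes *Hspa1a* (1.59) and *Hspa1b* (1.51) rose, a near-identical pair whose reads may have been split, and 5 did not pass. With so few genes, the immediate early and heat shock counts cannot be set apart from the 18.2% called among all genes.

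Of 9 genes of antigen presentation 4 fell and 5, such as the class I genes *H2-K1* (0.16) and *B2m* (0.09), did not pass. The class II genes *Cd74* (-1.22), *H2-Ab1* (-1.10), *H2-Aa* (-0.97) and *H2-Eb1* (-1.52) were the ones that fell. *Cd74* had 106, 135 and 636 CPM in capillary cells and 498, 162 and 509.7 CPM in venous cells, so that it was lower in the female library and in male library 1 and higher in male library 2. Without the female library the log2 fold change of *Cd74* was 0.20 and that of *H2-Aa* 1.45, and neither passed. The leukocyte marker sum was 125, 20.3 and 0 CPM in venous cells, against 54.4, 122 and 266 CPM in capillary cells, and its part in these values was not tested.

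The calls against venous cells rested on the female library to a large extent. Without it 874 genes could be tested and 62 were higher and 70 lower, of which 53 and 57 were among those called with all 3 libraries. Of the 94 called genes that belonged to a list or were named by size, 65 could then be fitted and 47 kept their call, and 29, such as *Btnl9*, *Gpihbp1*, *Sema7a* and *Prom1*, could not be fitted at the count filter. With the free RNA of each library subtracted from the sums, 113 genes were higher and 121 lower, and 73 of the 92 of these genes that could be fitted kept their call, while *Klf2*, *Klf4*, *Kitl*, *Acvrl1*, *Col4a1*, *Igfbp7*, *Sparcl1* and *Sparc* were among those that lost it.

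The second comparison set capillary cells beside arteriolar cells, which held at least 2 UMIs of *Cldn5* and *Stmn2*. There were 48, 5 and 1 such cells, so that this comparison rested almost wholly on the female library, and male library 2 entered with 1 cell. Of 1630 genes tested in the same fit, 61 (3.74%) were called, 33 (2.02%) higher and 28 (1.72%) lower in capillary cells, with a median log2 fold change of 0.12 over all genes. Scaled by total UMIs, 21 were higher and 93 lower and the median moved to -0.29. Without the female library 10 were higher and 1 lower.

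Capillary cells held less of the arterial list, of which 7 of 8 tested genes fell and 1 did not pass (median -1.74). *Fbln2* and *Crip1* of this list were described in arteriolar cells of these samples by the study, as was *Clu*, and are no independent evidence. *Fbln2*, a matrix protein of elastic vessels, had 51, 17 and 3 UMIs in capillary cells and 83, 7 and 2 UMIs in arteriolar cells, or 45.5, 109 and 34.7 CPM against 776, 1639 and 2985 CPM (log2 fold change -3.89 ± 0.35 (SE), adjusted p = 2.77e-25, edgeR). *Mgp* had 29, 6 and 5 UMIs against 84, 0 and 0 UMIs (-4.29 ± 0.41 (SE)), and without the female library its value was 4.36. *Jag2* (-2.01 ± 0.39 (SE)), *Clu* (-2.40), *Ltbp4* (-1.47), *Sox17* (-1.39) and *Crip1* (-1.14) fell.

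Of genes in no list, *Fn1*, which encodes fibronectin, fell most, with 11, 1 and 0 UMIs in capillary cells and 34, 1 and 1 UMIs in arteriolar cells (log2 fold change -4.99 ± 0.53 (SE), adjusted p = 7.27e-18, edgeR). *S100a6* (-3.77), *Mecom* (-2.14), *Lima1* (-1.98) and *Mast4* (-1.73) fell as well. *Fabp4* was lower than in arteriolar cells too (-2.56 ± 0.41 (SE)), with 1178, 1874 and 0 CPM there.

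Of the 9 venous genes, 4 rose over arteriolar cells and 5 did not pass (median 1.55). These were *Ptgs1* (3.00 ± 0.79 (SE)), *Lrg1* (2.39 ± 0.77 (SE)), *Nrp2* (1.98 ± 0.61 (SE)) and *Tshz2* (1.55 ± 0.42 (SE)), and the first of these rested on 2, 0 and 0 arteriolar UMIs. *Slco2a1* (2.76 ± 0.59 (SE)) rose too, at 298, 482 and 347 CPM against 56.1, 0 and 0 CPM. *Aqp1* rose over arteriolar cells (1.71 ± 0.48 (SE)) while it fell against venous cells, at 535, 688 and 636 CPM, 178, 468 and 0 CPM and 1816, 1641 and 1759 CPM in capillary, arteriolar and venous cells. *Gpihbp1* (1.67 ± 0.43 (SE)), *Scarb1* (1.33), *Col13a1* (1.88), *Srarp* (2.64), *Plpp3*, a lipid phosphatase (1.79), and *Rgs16* (1.71) rose. The immediate early genes *Egr1* (1.83), *Ier3* (1.76) and *Fos* (1.27) rose, and 12 of that list did not pass. The 2 comparisons share the capillary cells.

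UMI counts also varied among the capillary cells. After thinning to 1000 UMIs, the variance of UMIs over cells was compared with the mean for 508 genes that had a mean of at least 0.1 UMI in each library. A ratio of 1 is what counting alone would give at equal depth, and the median ratio was 1.07, 1.07 and 1.05. The 1000 UMIs included tear-product genes, whose share per capillary cell ran from 7.19 to 88.6%, 22.8 to 83.6% and 22.1 to 93.4%. Depth outside those genes thus still differed between cells. Unequal depth can raise the ratio of abundant genes, and its part was not tested. The nuclear RNA *Malat1* varied most, with ratios of 8.32, 4.59 and 5.16. *Cxcl12*, used by the rule, came next at 3.19, 3.14 and 3.23, a spread that was alike in the 3 libraries.

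The immediate early genes *Egr1* (2.91, 2.24 and 2.54), *Fos* (2.07, 2.56 and 2.30) and *Jun* (2.75, 2.08 and 2.06) followed. *Egr1* was detected in 55.1, 42.2 and 47.4% of thinned capillary cells and in 76.0, 59.1 and 57.2% of thinned fibroblast-like cells. *Igfbp7* (1.87, 2.14 and 2.00), *Tmsb4x* (1.84, 1.77 and 2.56) and *Actb* (1.71, 1.97 and 3.13) completed the abundant genes. *Cst3* and *Apoe*, which macrophages express strongly, had ratios of 1.77, 2.33 and 3.63 and of 1.94, 1.61 and 5.94, highest in male library 2, where the leukocyte marker sum was also highest. The part of other cells in this was not tested.

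**Figure D5:**
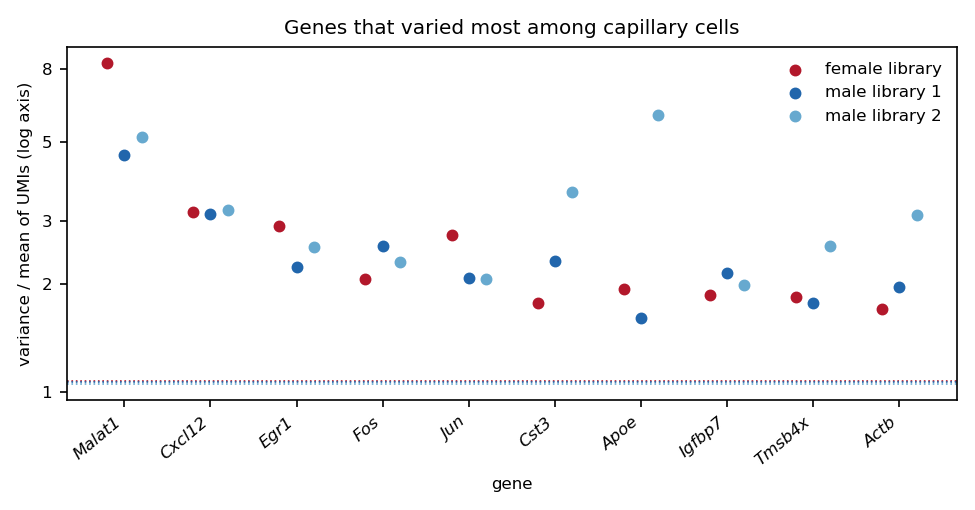
Points show the variance over the mean of thinned UMIs across capillary cells (log axis) for the 10 most variable genes in each library, and dotted lines the median over 508 genes. *Malat1* lay highest, at 8.32 in the female library, and *Cxcl12* lay between 3.14 and 3.23.

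Some markers of the capillary bed were found in a minority of cells even within this class. In thinned cells *Gpihbp1* was detected in 21.9, 20.1 and 12.6%, *Btnl9* in 18.2, 9.04 and 10.5%, *Cd300lg* in 24.8, 21.1 and 16.8% and *Esm1* in 6.24, 8.54 and 7.37%. In fibroblast-like cells the shares were 0, 0 and 0% for *Gpihbp1* and 0.126, 0.164 and 0% for *Cd300lg*. *Ly6c1* was found in 66.8, 70.3 and 69.5%. At this depth a cell without a UMI may still express the gene, since *Gpihbp1* reached 44.4, 29.4 and 14.3% without thinning.

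The female library was set beside the male libraries as values, without a test. Of genes with at least 30 UMIs in the female library, 573 were higher there than in both male libraries. Of genes with at least 30 UMIs over both male libraries, 192 were lower in the female library. The log2 gap was in each case at least 2 times that between the male libraries. Capillary sums outside tear-product genes were 1121460, 155479 and 86446 UMIs, so more genes could pass the female filter. The 2 counts therefore cannot be compared with each other. The leading genes higher in the female library were *Pnliprp1* (505, 0 and 0 UMIs), *BC037156*, *Hbb-bs*, *Cst10* and *Chia1*. For all of these but *Hbb-bs*, which came from 1 cell, the free RNA of the droplets would account for 88.9% to 110% of the UMIs, if all tear-product UMIs in capillary cells were free. *Ly6f* and *Cldn10*, higher in the male libraries, had like shares of 106% and 94.5%.

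For 3 genes higher in both male libraries (*Fabp5*, *Cxcl10* and *Lrg1*) the free share, taken over the 3 libraries together, was at most 26.3%, and it was 1.87% for *Lrg1*. Kept cells outside the endothelial classes also had more *Lrg1* (12.5, 58.3 and 58.3 CPM) and *Fabp5* (81.5, 256 and 245 CPM) in the male libraries. For those 2 genes the difference was thus not particular to capillary cells. *Cxcl10* had 553, 310 and 301 CPM there. *Lrg1*, a secreted glycoprotein linked to vessel growth, had 76.7, 424 and 347 CPM in capillary cells (86, 66 and 30 UMIs) and 725, 972 and 943 CPM in venous cells. *Cxcl10* had 21.4, 141 and 127 CPM in capillary cells (24, 22 and 11 UMIs), and *Fabp5* had 19.6, 116 and 139 CPM. The rule was also applied again to female counts thinned to the male depth. In their full counts, the cells then chosen had 64.4 CPM of *Lrg1*, 29.6 CPM of *Cxcl10* and 21.7 CPM of *Fabp5*, still under both male values. These values cover the change of members only. *Lrg1* was detected in 3.92, 15.6 and 16.8% of thinned cells.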

How the data were processed

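The data were UMI counts per gene and barcode for 3 libraries of mouse lacrimal gland, as deposited by the authors, who made them with Cell Ranger (6.1.2, genome mm10, per the submitters' processing notes). These filtered matrices precede the removal of ambient RNA and doublets that the study describes, so both remain in the counts used here. Unfiltered matrices, with headers that name Cell Ranger 4, served only to measure free RNA in uncalled droplets.

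Cells were kept at more than 500 UMIs, more than 200 genes and under 15% mitochondrial UMIs, and were classed by the gene rules given in the report, for capillary cells and for the venous and arteriolar cells. The other classes held no endothelial UMI and at least 2 UMIs (fibroblast-like, at least 3) of their own gate genes. The capillary genes, the 28 gene lists and the tests were chosen with earlier results of these data known. For tests, UMIs were summed per class and library (capillary sums of 1818791, 332143 and 227882 UMIs) and fitted over all 3 endothelial classes with edgeR 4.0.16 in R 4.3.3 (filterByExpr, TMM, a term per library, quasi-likelihood test, 4 residual degrees of freedom, Benjamini-Hochberg adjustment). Genes of the cell rules stayed out of the counts of calls. Levels are CPM outside 145 tear-product genes, and their depth per library is the range of sums above. Named genes were the 10 with the largest log2 fold change in each direction among those called, with the same direction in 3 of 3 libraries and at least 30 UMIs, members of the lists, the 5 genes per direction with the largest female to male ratio, the 10 most variable genes and the 10 highest over non-endothelial cells. For the direction in each library 0.5 UMI was added to each sum. In the male arteriolar sums, of 5 cells and 1 cell, a gene without a UMI could thus count as lower in capillary cells, as *Mgp* did. Against arteriolar cells the same direction in 3 of 3 libraries is therefore no support. Sex-linked, mitochondrial, ribosomal protein, tear-product and unnamed (Gm, Rik) genes were left out of the rankings. Doublets were not removed, and 39 capillary cells (4.27%) had scrublet scores (scanpy 1.11.5) among the highest of their library, at an assumed 0.8% per 1000 barcodes. Scripts were tested on simulated data. Alternatives were DESeq2 1.42.0, other scalings, filters and gates, subtraction of free RNA and each library left out. Promoter windows came from RefSeq (GRCm38.p6).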

Additional observations from a re-analysis of the deposited data

Results flagged for a closer look

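The class II genes *H2-Aa* and *H2-Eb1*, which present antigen, differed between the libraries in their contrast of capillary with venous cells. The log2 ratio of capillary to venous sums was taken with TMM scaling and 0.5 UMI added to each sum. For *H2-Aa* it was -1.85 in the female library and 1.77 and 1.04 in male libraries 1 and 2. For *H2-Eb1* it was -2.65 in the female library and 1.77 and 0.54 in the male libraries. The sign in each male library was thus opposite to that in the female library, and this difference was not tested. In male library 1 both genes had 5 UMIs against 0, so their shared value of 1.77 rested on the 0.5 UMI added. *H2-Aa* had 83, 5 and 26 UMIs in capillary cells and 83, 0 and 5 UMIs in venous cells, and *H2-Eb1* had 54, 5 and 25 UMIs against 94, 0 and 7 UMIs. The leukocyte marker sum, 54.4, 122 and 266 CPM in capillary cells and 125, 20.3 and 0 CPM in venous cells, had its higher value in the same class as both genes in each library, and its part in them was not tested.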

How the results depend on the processing

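Female and male libraries came from separate animals and were not paired. The endothelial classes were compared within each library through the library term. The total of 913 capillary cells moved by less than 1.5 times under every gate and filter tried, while that of male library 2 fell from 119 to 74 with at least 5 endothelial UMIs. Against venous cells, 153 genes were higher and 144 lower. The counts moved by over 1.5 times to 60 higher with DESeq2, 246 lower when scaled by total UMIs, 224 lower without the filter on low counts, 57 higher and 76 lower without the library term, 266 lower with the venous and capillary sums alone, and 101 higher with at least 5 endothelial UMIs per cell. Leaving out 1 library gave 62 to 143 higher and 70 to 158 lower, the lowest counts being those without the female library. Against arteriolar cells, with 33 higher and 28 lower, the counts were 5 and 18 with DESeq2, 21 and 93 with total UMIs, 16 and 61 without the filter, 2 and 10 without the library term and 8 and 17 with the 2 classes alone. They were 19 higher with at least 5 endothelial UMIs and 19 higher with free RNA subtracted, an alternative chosen after seeing the data. Leaving out 1 library gave 9 to 13 higher and 1 to 30 lower, with 9 and 18 without male library 1 and 13 and 30 without male library 2, whose lone arteriolar cell was assumed to vary like the other sums. The causes were not tested.

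Over all alternatives the 94 named or listed genes called against venous cells gave 1390 of 1635 values with the same call, 243 of the same direction that no longer passed and 2 of the opposite direction, and 43 genes kept the call in all fits that included them. Against arteriolar cells these were 421, 168 and 2 of 591 values over 34 genes, and 3 genes kept the call. The reversals came without the female library, where *Cd74* was 0.20 (lowest over libraries left out -1.93), *H2-Aa* 1.45 (lowest -1.72), *Mast4* against arteriolar cells 0.080 (lowest -1.73) and *Mgp* against arteriolar cells 4.36 (lowest -4.52). None of these reversed values passed the test. With CPM over all UMIs, tear-product genes included, mean levels were 1344 for *Plvap*, 539 for *Rgcc*, 2120.2 for *Cxcl12*, 787 for *Kdr*, 446 for *Rbp7*, 190.4 for *Gpihbp1* and 116 for *Btnl9*. With at least 4 capillary UMIs per cell *Rgcc* was at 1249.6 and *Cxcl12* at 4994 CPM. Depth limits the male libraries most, where the sums outside tear-product genes were 155479 and 86446 UMIs for capillary cells.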

Other observations

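Several capillary and arterial genes were too low for the count filter and are given as UMIs. *Hey1*, a transcriptional target of Notch, had 39 UMIs in capillary cells and 0 in venous cells, at least 4.04-fold higher against a floor of 3 UMIs over the venous group. *Car4*, a carbonic anhydrase of capillary surfaces, had 74, 5 and 3 UMIs in capillary cells and 1, 0 and 0 in venous cells. *Mfsd2a*, a lipid transporter known from the blood-brain barrier, had 34, 4 and 2 UMIs against 1, 0 and 0. *Notch4*, a receptor of endothelium, had 78, 12 and 4 UMIs against 2, 0 and 0, and *Nos3*, the endothelial nitric oxide synthase, had 68, 7 and 3 UMIs against 17, 5 and 2. *Aplnr*, the apelin receptor, had 119, 22 and 9 UMIs against 18, 6 and 6. These values had no test.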
